A study of Mus musculus with 6 samples.

Results

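The genes described here encode the enzymes of glutathione and thioredoxin chemistry. They are the 55 protein-coding genes of GENCODE M21 whose symbols mark them as soluble glutathione transferases (22 genes, Gsta to Gstz), glutathione peroxidases (8, Gpx), peroxiredoxins (7, Prdx) or thioredoxins with their reductases, inhibitor and thioredoxin-domain relatives (18, Txn), out of 55487 gene identifiers in the count table. Polyadenylated RNA of whole testes from mice at postnatal day 19 was sequenced in 6 libraries from different animals. Of these, 3 are labelled dsfb, which per the title of the series are mice homozygous for SFB alleles of Hormad1 and Hormad2, the genes of a pair of HORMA-domain proteins on the meiotic chromosome axis, and 3 are labelled control. The labels give neither the strain nor the genotype of the control mice beyond that word. The dsfb libraries held 15335130 to 17306363 counted reads and the control libraries 23983373 to 27707291. Levels are given as CPM, counts scaled to the library size after TMM normalisation. Hormad2 averaged 27.1 ± 1.79 CPM in dsfb and 52.7 ± 8.79 CPM in control testes, and Hormad1 235 ± 15.7 CPM in dsfb and 380 ± 150 CPM in control testes. Hormad2 passed as lower (edgeR adjusted p = 0.000757) and Hormad1 did not pass (edgeR adjusted p = 0.0597), with control replicate 3 at 209 CPM for Hormad1, below the other controls. The labels do not say whether the SFB alleles change the transcript level, so these values do not check the genotype. The comparison asks how the transcript levels of these genes differ in dsfb testes.

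Glutathione, a tripeptide with a free thiol, is used by glutathione transferases to tag electrophilic compounds and by glutathione peroxidases to reduce peroxides. Peroxiredoxins remove peroxides with an active-site cysteine that is reduced again by thioredoxin, and thioredoxin reductase returns thioredoxin to its reduced form at the cost of NADPH. In the testis this chemistry also builds the sperm cell, since protamines and the proteins of the midpiece are cross-linked through thiols, and several members have forms that are made mainly by germ cells.

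Some members carry selenocysteine, which is written in the messenger RNA as an in-frame TGA, the codon that otherwise ends translation. GENCODE marks it in 7 of the 55 genes. The coding sequence around that codon is shown because it separates these enzymes from their cysteine relatives, with the selenocysteine codon in capitals (5′ to 3′, transcripts of GENCODE M21, mm10).
Gpx1: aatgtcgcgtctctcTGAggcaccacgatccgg
Gpx2: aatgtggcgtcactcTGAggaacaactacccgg
Gpx3: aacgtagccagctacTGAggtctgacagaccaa
Gpx4: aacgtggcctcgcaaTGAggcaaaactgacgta
Txnrd1: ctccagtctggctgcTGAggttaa
Txnrd2: actgtgactggttgcTGAggctaa
Txnrd3: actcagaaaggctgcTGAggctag
In the 4 peroxidases the codon lies within the reading frame (codon 47 of 201 in Gpx1 and codon 129 of 253 in the longest Gpx4 form, plus strand, chr10:80054737-80054739). In the 3 reductases it is the last codon but 1 (codon 614 of 615 in Txnrd3, plus strand, chr6:89674789-89674791), and the sequences shown for them end with the stop codon. Gpx5, Gpx6, Gpx7 and Gpx8 have no such codon in this annotation.

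Both directions of change ran through each of the families, with falls that were larger than the rises. Of the 50 members with enough reads to be tested, 27 rose, 17 fell and 6 did not pass (edgeR adjusted p under 0.05). This count of 44 members has to be read against a background in which 66.9% of all 19826 tested genes passed, 30.7% as higher and 36.2% as lower in dsfb. The median log2 fold change, dsfb over control, was 0.37 over the tested members, also with Txndc8, which had no reads in dsfb, at its bound, and 0.02 over all tested genes. No rise was larger than 2.6-fold (Gstm6), while 11 members fell by at least 4-fold, as did 3623 of all 19826 tested genes. At 2-fold or more 11 members fell and 10 rose, against 26.8% and 13.2% of all tested genes. Large falls were thus not particular to the members. The dsfb and control libraries did not overlap in 46 of the 50 members, against 74.7% of all tested genes. The other 5 members, Gpx2, Gpx5, Gsta1, Gstm3 and Gstp3, were at or below 0.254 CPM in every library and were not tested. Values for single libraries are given in the order of replicates 1, 2 and 3, and means with their SD are over n = 3 per group.

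**Figure D1:**
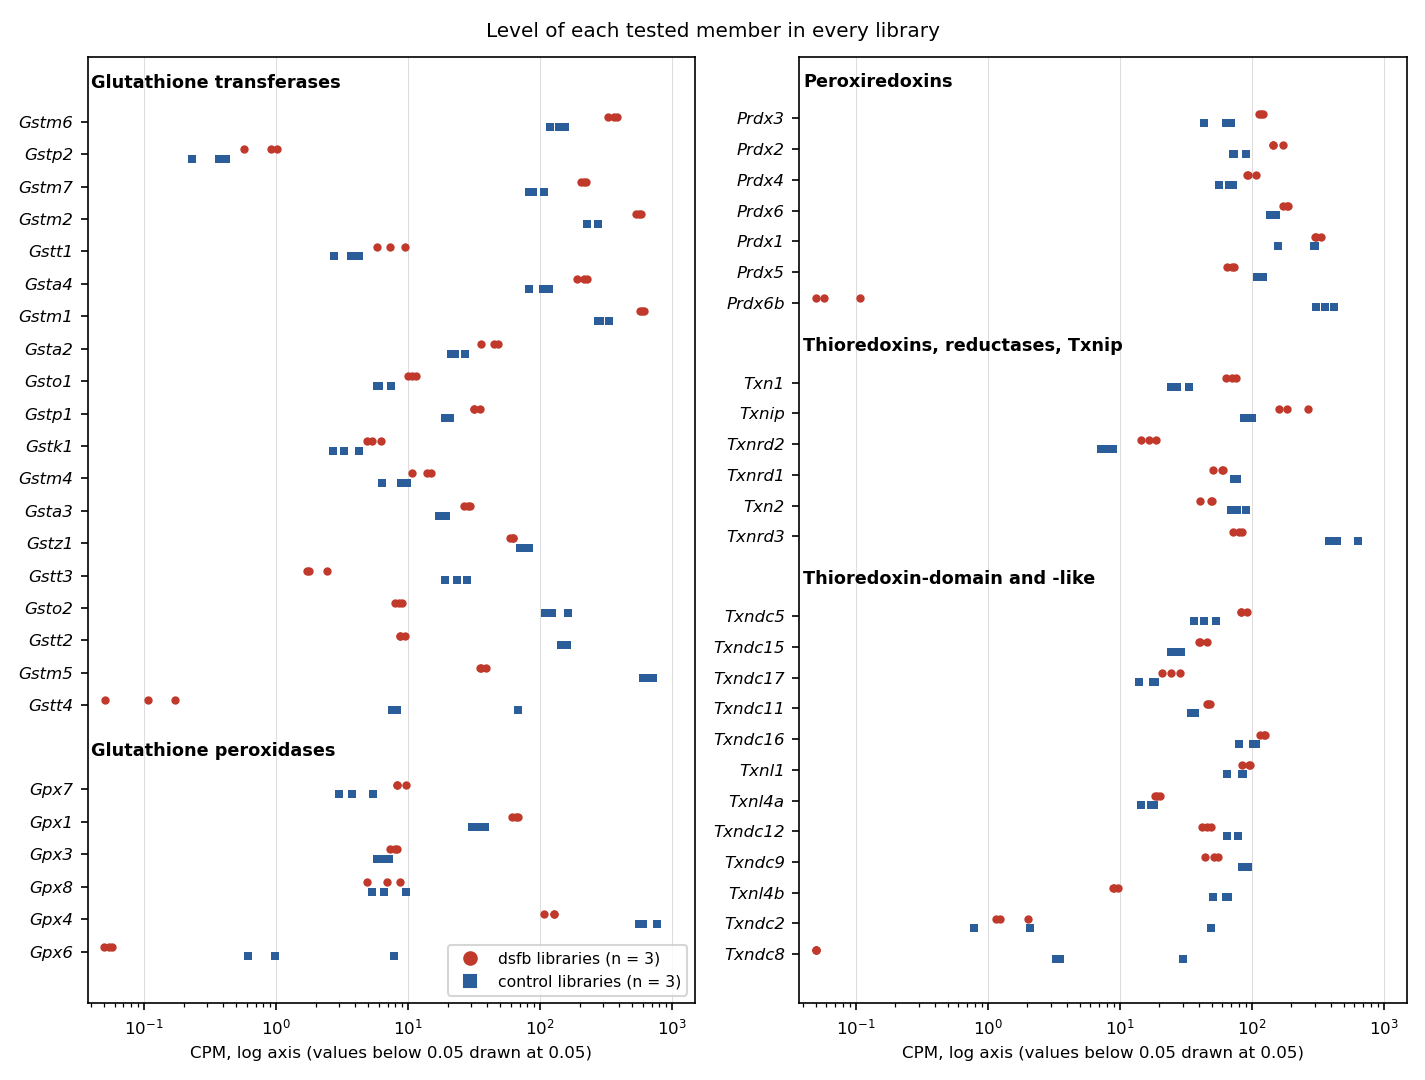
CPM on a log axis for each of the 50 tested members, with 1 point per library (red circles for the 3 dsfb libraries, blue squares for the 3 control libraries), ordered within each family by log2 fold change. The members at the foot of each family, such as Prdx6b, Gstm5 and Gpx4, had dsfb libraries far below the control libraries, while for most other members the dsfb libraries lay a short way above them. Values below 0.05 CPM are drawn at 0.05.

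The balance of calls over all genes depended on the scaling. Of the calls over all genes 45.9% were higher in dsfb, with TMM, and 57.2% with upper-quartile scaling and 60.9% with library size as the only scaling, settings under which the median over all genes lay 0.28 and 0.39 higher on the log2 scale. Of the calls among the members, 61.4% were higher with TMM, 67.4% with upper-quartile scaling and 68.9% with library size only. RLE scaling moved the balance the other way, with a median shift of -0.089 on the log2 scale over all genes. With it 42.0% of the calls over all genes and 58.5% of those among the members were higher.

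Marker genes of the cell types of the testis differed between the groups, and in bulk RNA fewer cells of a type and less RNA per cell cannot be told apart. Each of the 12 markers of mid and late pachytene spermatocytes fell, with a summed level of 488 to 553 CPM in dsfb and 9566 to 13457 CPM in control testes. All 11 tested spermatid markers fell, with sums of 16.9 to 18.6 CPM in dsfb and 186 to 1093 CPM in control testes, the upper end being control replicate 3 (the other controls were at 186 and 207 CPM). Much of the sum in control replicates 1 and 2 was Acr, at 95.8 and 114 CPM, against 176 CPM in control replicate 3. Prm1 was at 0.326, 0.578 and 30.8 CPM in control testes, and its groups overlapped. Of 13 Sertoli cell markers 12 rose and none fell, with sums of 5477 to 5680 CPM in dsfb and 2375 to 3092 CPM in control testes. Of 8 Leydig cell markers 4 rose and none fell (357 to 633 CPM in dsfb and 254 to 460 CPM in control testes), as did 3 of 5 peritubular myoid markers (349 to 476 CPM in dsfb and 191 to 304 CPM in control testes), 5 of 7 macrophage markers (213 to 291 CPM in dsfb and 126 to 170 CPM in control testes) and 2 of 5 vascular markers (35.5 to 42.0 CPM in dsfb and 21.9 to 29.8 CPM in control testes). Spermatogonial markers rose in 6 of 9 and fell in 2 (449 to 514 CPM in dsfb and 768 to 963 CPM in control testes). Their lower sum in dsfb came from the 2 that fell and goes against the direction of the 6 that rose. Dmrtb1 averaged 45.3 ± 7.48 CPM in dsfb and 554 ± 142 CPM in control testes, and Id4 25.5 ± 2.89 CPM in dsfb and 73.2 ± 8.23 CPM in control testes. Early meiotic markers rose in 4 of 8 and fell in 1 (908 to 1033 CPM in dsfb and 774 to 1558 CPM in control testes). The largest part of these sums was Sycp1, at 490 ± 37.7 CPM in dsfb and 759 ± 300 CPM in control testes. Sycp1 did not pass (edgeR adjusted p = 0.0833). Stra8, which rose, is counted in both the spermatogonial and the early meiotic list. The low end of the early meiotic control range is control replicate 3, and the other controls were at 1489 and 1558 CPM. Markers of the epididymal epithelium were at 0 to 0.23 CPM in sum in dsfb and 0.0413 to 0.139 CPM in control testes, with Lcn9 at 0 in all 6 libraries. The part these differences have in the values below was not tested.

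Among the glutathione transferases, 13 rose, 6 fell and none of the 19 tested genes missed the threshold. The falls were the larger changes and took in 5 genes that were reduced by more than 10-fold. Gstm5, a mu-class transferase, was at 35.6, 39.0 and 35 CPM in dsfb and at 603, 688 and 717 CPM in control testes. Its groups lay far apart, with a log2 fold change of -4.20 (SE 0.11, edgeR adjusted p = 1.95e-07), an 18.3-fold fall. Per kilobase of annotated exon it was the most abundant of the 55 members in control testes, at 524 CPM per kilobase, against 28.6 in dsfb. Its exons share 13.9% of their length with a gene on the opposite strand, 4933431E20Rik, and whether reads were counted by strand is not known here.

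Gstt2, a theta-class transferase, was at 8.63, 8.72 and 9.56 CPM in dsfb and at 161, 160 and 145 CPM in control testes, a log2 fold change of -4.11 (SE 0.10, edgeR adjusted p = 1.88e-07). Gsto2, an omega-class enzyme that reduces dehydroascorbate, was at 8.94, 7.92 and 8.48 CPM in dsfb and at 109, 124 and 163 CPM in control testes, a log2 fold change of -3.96 (SE 0.17, edgeR adjusted p = 1.35e-06). In both genes every dsfb library was below 10 CPM and every control library above 100 CPM. Gstt3 was at 1.73, 1.78 and 2.43 CPM in dsfb and at 19.1, 23.6 and 28 CPM in control testes (log2 fold change -3.57, SE 0.24, edgeR adjusted p = 1.21e-05), and 26.0% of the 50-base stretches of its main transcript also occur in Gm20441, an annotated gene that overlaps it on the same strand. Gstt4 was at 0.0508, 0.172 and 0.108 CPM in dsfb and at 8.19, 7.52 and 68.7 CPM in control testes, so that its control level came mostly from replicate 3. Its log2 fold change was -7.94 (SE 1.28, edgeR adjusted p = 0.0011) with all libraries and -6.13 without control replicate 3 (edgeR adjusted p = 1.43e-12). The adjusted p-values of Gstm5 and Gpx4 also became far smaller without that library, so this drop is not particular to Gstt4. With limma-voom the call of Gstt4 was lost (adjusted p = 0.0533), and DESeq2 gave Gstt4 no adjusted p. The sixth gene that fell, Gstz1, the maleylacetoacetate isomerase of tyrosine breakdown, changed little (log2 fold change -0.32, SE 0.09, edgeR adjusted p = 0.0168). That call was lost without dsfb replicate 1 or 2 (edgeR adjusted p = 0.053 to 0.0762), and with library size as the only scaling its value was 0.08.

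The transferases that rose formed a graded set of up to 2.6-fold. Gstm1 was at 573, 590 and 618 CPM in dsfb and at 331, 274 and 287 CPM in control testes and Gstm2 at 564, 587 and 532 CPM in dsfb and at 276, 227 and 225 CPM in control testes, with log2 fold changes of 1.0 (SE 0.10, edgeR adjusted p = 0.0001) and 1.21 (SE 0.11, edgeR adjusted p = 5.48e-05). In dsfb testes these mu-class genes had the highest levels per kilobase of exon among the members (403 and 334 CPM per kilobase). Gstm6 averaged 358 ± 29.5 CPM in dsfb and 138 ± 17.0 CPM in control testes (log2 1.38) and Gstm7 214 ± 9.91 CPM in dsfb and 92.5 ± 12.7 CPM in control testes (log2 1.21). Gsta4, which conjugates 4-hydroxynonenal, a product of lipid peroxidation, averaged 211 ± 19.2 CPM in dsfb and 102 ± 17.7 CPM in control testes (log2 1.05). Gstt1, Gsta2, Gsto1, Gstp1 and Gsta3 had log2 fold changes of 1.08, 0.86, 0.73, 0.71 and 0.61.

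Calls for the low members of this set were less secure. Gstk1, the kappa-class enzyme of mitochondria and peroxisomes, averaged 5.50 ± 0.733 CPM in dsfb and 3.41 ± 0.779 CPM in control testes (log2 fold change 0.69, SE 0.25, edgeR adjusted p = 0.0379), and its call was lost without control replicate 2 or any 1 dsfb library (edgeR adjusted p = 0.0533 to 0.128). Gstm4 (log2 fold change 0.66, SE 0.23, edgeR adjusted p = 0.0337) lost its call without control replicate 1 or 2 or dsfb replicate 1 or 2 (edgeR adjusted p = 0.0741 to 0.109). Gstp2, below 1.1 CPM in every library (log2 fold change 1.28, SE 0.42, edgeR adjusted p = 0.0262), lost its call without control replicate 2 or 3 or dsfb replicate 1 or 3 (edgeR adjusted p = 0.0619 to 0.101). All of Gstk1, Gstm4 and Gstp2 also lost their calls with no filter beyond 1 read. With RLE scaling the calls of Gstk1 and Gstm4 were lost, and with DESeq2 those of Gstk1 and Gstp2. Reads of near-identical copies may have been divided: 62.3% of the 50-base stretches of Gstp1 and 72.6% of those of Gstp2 occur in another annotated gene (mainly each other), as do 64.2% of those of Gsta2 (in Gsta1 and its relatives) and 33.0% of those of Gstm1 (mainly in Gstm2-ps1 and Gstm3).

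Summed over all 22 transferases the level was 2197 ± 80.8 CPM in dsfb and 2040 ± 45.2 CPM in control testes, so with TMM scaling the total differed far less than its makeup. The TMM factors were 1.14 to 1.16 in dsfb and 0.844 to 0.897 in control libraries. With library size as the only scaling the median over all genes lay 0.39 higher on the log2 scale, and the sums were not computed with it. Gstm1, Gstm2, Gstm6, Gstm7 and Gsta4, grouped after their values were seen, together held 1938 ± 71.6 CPM in dsfb and 872 ± 99.4 CPM in control testes. Gstm5, Gsto2, Gstt2, Gstt3 and Gstt4, likewise grouped, held 56.0 ± 1.34 CPM in dsfb and 1008 ± 111 CPM in control testes.

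Opposite changes occurred in genes that lie side by side. The 7 mu-class genes occupy 149074 bases of chromosome 3 (chr3:107895821-108044894, mm10) with no other protein-coding gene between them. Gstm5 is the first of them in genome order and the one on the plus strand, and it fell, while Gstm7, whose annotated span begins 27647 bases further on, Gstm6, Gstm2, Gstm1 and Gstm4, all on the minus strand, rose. On chromosome 19, Gsto1 (chr19:47854970-47864790) ends 743 bases before Gsto2 (chr19:47865534-47886324) begins on the same strand. The protein-coding gene Cfap43 overlaps the span of this pair. Gsto1 averaged 10.7 ± 0.761 CPM in dsfb and 6.44 ± 0.900 CPM in control testes and rose, while Gsto2 fell. In the theta cluster on chromosome 10 (chr10:75774115-75837424), which the protein-coding gene Gm20441 overlaps, Gstt1 rose between Gstt3 and Gstt4, which both fell. Txn1 and Txndc8, 27615 bases apart on chromosome 4, also changed in opposite directions.

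**Figure D2:**
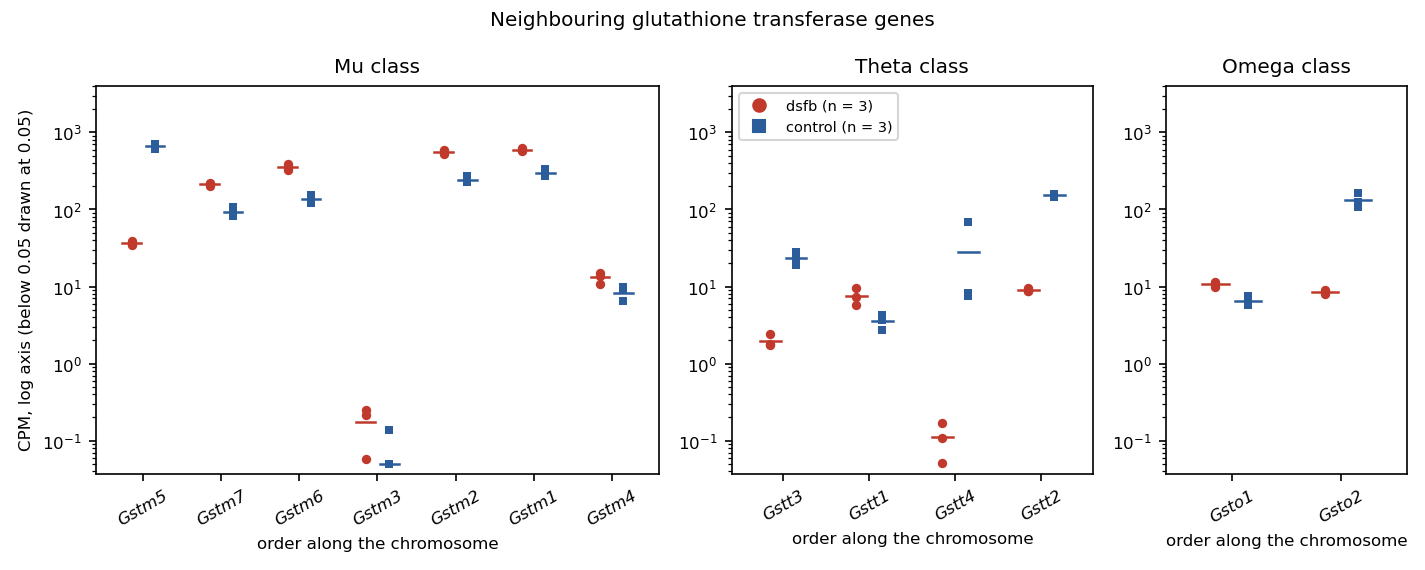
CPM on a log axis for neighbouring transferase genes of the mu, theta and omega classes in chromosomal order, with 1 point per library (red circles dsfb, blue squares control) and lines at the group means of n = 3. Gstm5, Gstt3, Gstt4, Gstt2 and Gsto2 had lower dsfb points, while the other tested genes of these clusters had higher dsfb points. Gstm3 was not tested, and values below 0.05 CPM are drawn at 0.05.

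The promoters of the pairs Gsto2 and Gsto1 and Gstm5 and Gstm7 are shown because these neighbours moved apart. Each is the RefSeq window (GRCm38.p6) of 250 bases before and 50 after the transcription start nearest to the GENCODE start, 5′ to 3′ on the gene's strand, with CpG dinucleotides in capitals.
Gsto2 (chr19:47865295-47865594, plus strand): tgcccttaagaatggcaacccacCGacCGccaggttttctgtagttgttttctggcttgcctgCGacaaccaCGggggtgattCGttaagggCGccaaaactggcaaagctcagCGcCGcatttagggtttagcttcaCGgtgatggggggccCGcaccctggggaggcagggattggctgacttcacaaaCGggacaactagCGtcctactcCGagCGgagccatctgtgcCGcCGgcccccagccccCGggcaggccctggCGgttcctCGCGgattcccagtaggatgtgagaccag
Gsto1 (chr19:47854723-47855022, plus strand): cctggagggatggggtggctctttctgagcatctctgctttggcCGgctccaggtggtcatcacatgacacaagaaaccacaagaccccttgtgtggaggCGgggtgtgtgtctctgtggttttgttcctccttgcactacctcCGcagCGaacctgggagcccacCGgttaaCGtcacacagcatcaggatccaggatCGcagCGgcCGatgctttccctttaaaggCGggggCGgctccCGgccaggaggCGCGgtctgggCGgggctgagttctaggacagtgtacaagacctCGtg
Gstm5 (chr3:107895604-107895903, plus strand): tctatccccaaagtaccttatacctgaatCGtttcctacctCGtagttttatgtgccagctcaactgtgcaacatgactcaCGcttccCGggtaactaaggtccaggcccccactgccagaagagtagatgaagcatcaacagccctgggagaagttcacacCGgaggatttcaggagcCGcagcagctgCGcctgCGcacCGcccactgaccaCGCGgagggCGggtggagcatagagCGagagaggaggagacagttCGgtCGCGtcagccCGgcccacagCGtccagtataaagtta
Gstm7 (chr3:107931768-107932067, minus strand): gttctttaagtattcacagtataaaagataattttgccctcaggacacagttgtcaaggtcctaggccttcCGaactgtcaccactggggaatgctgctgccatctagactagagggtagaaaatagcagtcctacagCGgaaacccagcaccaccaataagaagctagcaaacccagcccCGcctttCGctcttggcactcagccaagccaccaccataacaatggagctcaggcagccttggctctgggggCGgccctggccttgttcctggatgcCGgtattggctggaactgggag
The omega pair had 20 and 16 CpG dinucleotides and a GC content of 61.7% and 60.7% (Gsto2 and Gsto1). Gstm5 had 18 CpG dinucleotides and 57.0% GC, and Gstm7 had 6 and 53.3%. Over 1 window per gene, the 15 members that fell and have a window had a median of 15 CpG dinucleotides. The 25 that rose also had a median of 15 (range 2 to 39), while all 32851 windows had a median of 7. The 9 members with a window that fell by at least 2-fold had a median of 5, with a range of 1 to 21. Gsto2 and Gstm5, printed here, lie in the upper part of that range. These differences were not tested. Windows were found for 49 of the 55 members (66 windows), and Gsta4, Gstt2, Prdx6, Prdx6b, Txnl1 and Txnl4a had none. The core of the antioxidant response element, TGACNNNGC on either strand, to which NRF2 binds with small MAF proteins, was found in 12.1% of member windows and in 12.4% of all windows. Among the windows printed here it occurs in that of Gstm5. Gstm7 also has it, in another of its windows that is not printed, so the motif does not separate this pair. The cyclic AMP response element TGACGTCA on either strand, a site of CREM and CREB, was found in 1 member window, that of Txnl4b, and in 1.79% of all windows. The RFX X-box, searched on either strand, was in 0 of the 66 member windows and in 2.17% of all windows. The first and second of these motifs share the letters TGAC, and a match describes the sequence and not a bound site.

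Of the 6 glutathione peroxidases tested, 2 rose, 2 fell and 2 did not pass. Gpx4, which reduces hydroperoxides within membrane lipids and later forms a structural part of the sperm midpiece, was at 128, 127 and 107 CPM in dsfb and at 567, 602 and 768 CPM in control testes. This selenoprotein gene fell 5.34-fold (log2 fold change -2.42, SE 0.15, edgeR adjusted p = 7e-06). The pachytene markers fell by larger changes. Of all tested genes 36.2% passed as lower, and a link of Gpx4 to the markers was not tested. Gpx4 was second to Gstm5 in level per kilobase of exon in control testes (70.2 in dsfb and 375 in control testes CPM per kilobase). Of its 50-base stretches, 61.7% also occur in other annotated genes, mainly the pseudogene Gpx4-ps2, and the mitochondrial, cytosolic and nuclear forms of Gpx4 are counted as one gene here. Gpx1, the abundant cytosolic peroxidase and also a selenoprotein, was at 61.1, 65.8 and 67.9 CPM in dsfb and at 38.1, 30.4 and 34.8 CPM in control testes, a log2 fold change of 0.92 (SE 0.11, edgeR adjusted p = 0.000264). Gpx7, a peroxidase of the endoplasmic reticulum without selenocysteine, was at 9.60, 8.32 and 8.26 CPM in dsfb and at 5.44, 3.76 and 3.01 CPM in control testes (log2 fold change 1.1, SE 0.26, edgeR adjusted p = 0.00662). In both, all dsfb libraries were above all controls.

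Gpx6 was at 0, 0.0574 and 0.0540 CPM in dsfb and at 0.977, 0.619 and 7.83 CPM in control testes, that is 0, 1 and 1 reads against 21, 15 and 169, and control replicate 3 held most of them. The ratio of control over dsfb level was 84.8 with a 95% counting interval of 23.2 to 705, which covers counting error only, and 21.9 (5.64 to 188) without control replicate 3. Gpx6 passed (edgeR adjusted p = 0.00614), but without control replicate 1 or 3 it had too few reads to be tested. Gpx3, the secreted plasma peroxidase (7.83 ± 0.504 CPM in dsfb and 6.49 ± 0.681 CPM in control testes), and Gpx8 of the endoplasmic reticulum (6.83 ± 1.88 CPM in dsfb and 7.18 ± 2.18 CPM in control testes) did not pass (edgeR adjusted p = 0.225 and 0.848). Gpx3 passed with upper-quartile scaling or library size as the only scaling. Gpx5, the peroxidase of the epididymis, had 0 reads in all 6 libraries.

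The peroxiredoxins held the fall with the largest ratio that could be given for a member. Prdx6b, an annotated protein-coding gene with 1 exon block on chromosome 2 (chr2:80292472-80295356) that is related to Prdx6, was at 0, 0.0574 and 0.108 CPM in dsfb and at 307, 356 and 419 CPM in control testes. In reads this was 0, 1 and 2 in dsfb against 6605, 8620 and 9048 in control libraries, a ratio of control over dsfb level of 6691 with a 95% counting interval of 2289 to 32449 (edgeR adjusted p = 1.88e-07). Because dsfb had 3 reads in all, the fitted log2 value ranged from -11.97 without dsfb replicate 1 to -13.41 without dsfb replicate 3, and it is no measured size. Prdx6 itself, a peroxiredoxin with 1 active cysteine, averaged 182 ± 8.36 CPM in dsfb and 143 ± 7.83 CPM in control testes and rose (log2 fold change 0.35, SE 0.08, edgeR adjusted p = 0.00664). Per kilobase of exon Prdx6b stood at 0.0191 in dsfb and 125 in control testes CPM per kilobase, and Prdx6 at 37.9 in dsfb and 29.8 in control testes. The transcripts share few 50-base stretches (0.25% of those of Prdx6b), so reads of the pair are largely told apart. Control replicates, unlike for Gpx6, were close to each other in Prdx6b.

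Among the other peroxiredoxins 4 rose by less than 2-fold, counting Prdx6, and 1 fell. Prdx3, the mitochondrial enzyme, was at 118, 121 and 113 CPM in dsfb and at 70.0, 63.3 and 43.5 CPM in control testes (log2 fold change 0.99, SE 0.17, edgeR adjusted p = 0.00134). Prdx2, a cytosolic enzyme, was at 144, 173 and 145 CPM in dsfb and at 89.8, 72.4 and 72.9 CPM in control testes (log2 fold change 0.98, SE 0.12, edgeR adjusted p = 0.000298), with 23.8% of its 50-base stretches shared with other genes. Prdx4, the enzyme of the endoplasmic reticulum and the X-linked member, was at 91.6, 108 and 93.5 CPM in dsfb and at 71.8, 67.4 and 56.6 CPM in control testes (log2 fold change 0.58, SE 0.12, edgeR adjusted p = 0.00323). In these genes every dsfb library lay above every control library. Prdx5, found in mitochondria, peroxisomes and cytosol, fell, at 73.7, 71.2 and 64.5 CPM in dsfb and at 110, 115 and 121 CPM in control testes (log2 fold change -0.72, SE 0.09, edgeR adjusted p = 0.000259), and 19.1% of its exon length overlaps Trmt112 on the opposite strand. Prdx1, a cytosolic enzyme, was at 306, 334 and 300 CPM in dsfb and at 303, 294 and 159 CPM in control testes. Control replicate 1 lay within the dsfb range, replicate 3 was far below it, and Prdx1 did not pass (log2 fold change 0.31, SE 0.23, edgeR adjusted p = 0.247), although it did with upper-quartile scaling (edgeR adjusted p = 0.048) and with library size as the only scaling (edgeR adjusted p = 0.028). Without control replicate 3 the log2 fold change of Prdx1 was 0.043 (edgeR adjusted p = 0.638).

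Of the thioredoxins, their reductases and the inhibitor Txnip, 3 rose and 3 fell. Txnrd3, the thioredoxin-glutathione reductase of the testis and the third selenoprotein reductase, was at 80.1, 72.5 and 84.2 CPM in dsfb and at 386, 440 and 637 CPM in control testes. It fell 6.18-fold (log2 fold change -2.63, SE 0.19, edgeR adjusted p = 1.96e-05), and even its lowest control library lay above the highest dsfb library by a wide margin. The other reductases moved differently. Txnrd1, the cytosolic reductase, averaged 57.2 ± 5.30 CPM in dsfb and 75.3 ± 2.28 CPM in control testes (log2 fold change -0.40, SE 0.10, edgeR adjusted p = 0.00758), a fall that did not pass with upper-quartile scaling or library size as the only scaling (log2 -0.12, edgeR adjusted p = 0.288, and log2 -0.0045, edgeR adjusted p = 0.97). Txnrd2, the mitochondrial reductase, was at 18.8, 14.5 and 16.6 CPM in dsfb and at 7.17, 8.18 and 8.85 CPM in control testes and rose (log2 fold change 1.04, SE 0.18, edgeR adjusted p = 0.00151). Per kilobase of exon, Txnrd3 stood at 27.8 in dsfb and 172 in control testes CPM per kilobase, Txnrd1 at 8.07 in dsfb and 10.6 in control testes and Txnrd2 at 3.78 in dsfb and 1.83 in control testes, and Txnrd3 was the highest of the 3 reductases in both groups.

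Txn1, the cytosolic thioredoxin, was at 70.4, 75.9 and 64.1 CPM in dsfb and at 33.5, 26.9 and 24.3 CPM in control testes and rose 2.49-fold (log2 fold change 1.31, SE 0.14, edgeR adjusted p = 0.000134). Txn2, the mitochondrial thioredoxin, was at 49.2, 50.4 and 40.6 CPM in dsfb and at 69.5, 77.8 and 89.7 CPM in control testes and fell (log2 fold change -0.76, SE 0.13, edgeR adjusted p = 0.0015). The cytosolic and the mitochondrial thioredoxin thus changed in opposite directions. Txnip, which binds and inhibits thioredoxin, was at 161, 184 and 267 CPM in dsfb and at 87.4, 99.7 and 99.8 CPM in control testes and rose (log2 fold change 1.09, SE 0.19, edgeR adjusted p = 0.00138), dsfb replicate 3 being the highest library. Of the exon length of Txnip, 19.4% overlaps Gm15441 on the opposite strand.

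**Figure D3:**
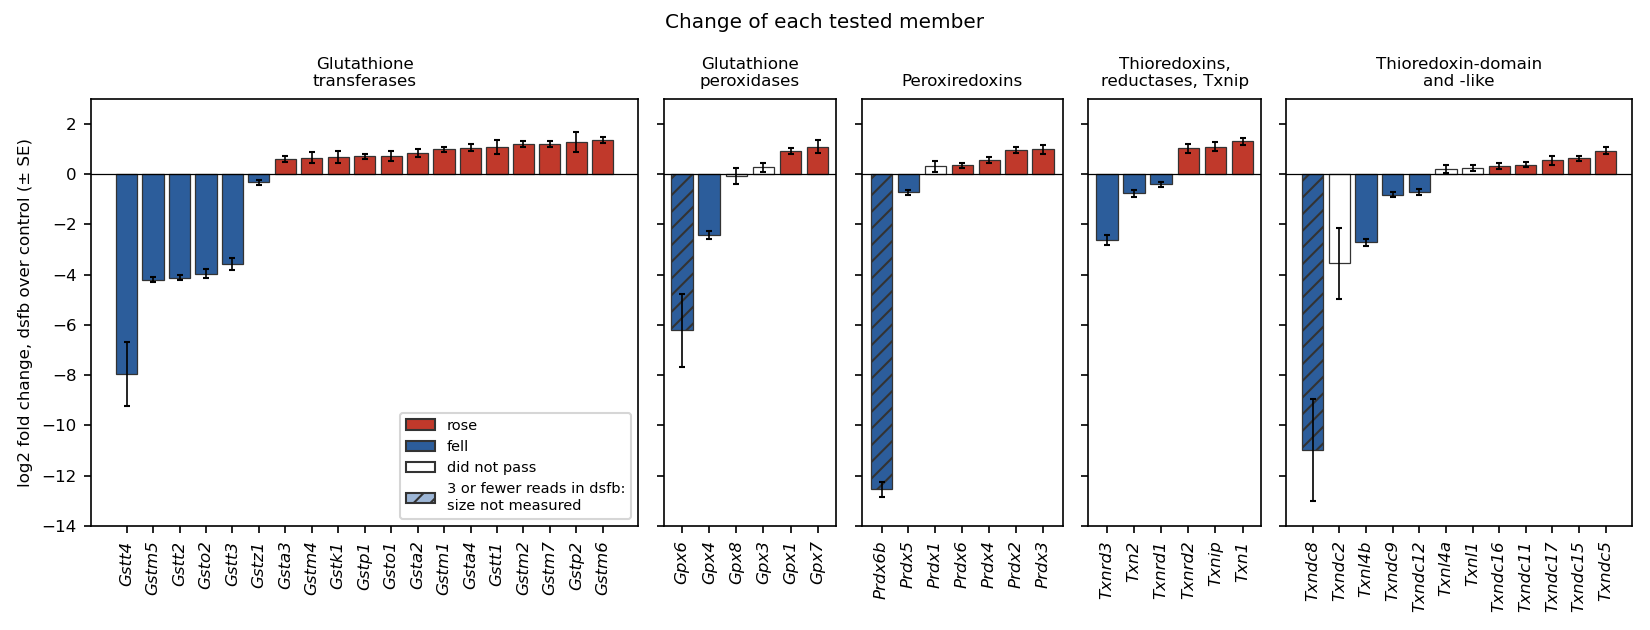
Fitted log2 fold change of dsfb over control (bars, ± SE) for the 50 tested members in 5 families, red for genes that rose, blue for those that fell and white for those that did not pass. Hatched bars mark Gpx6, Prdx6b and Txndc8, which had 3 or fewer reads in dsfb and whose size is not measured. Rises stayed at or below 1.38, and falls reached beyond 2 in every family.

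In the thioredoxin-domain and thioredoxin-like genes 5 of 12 rose, 4 fell and 3 did not pass. Txndc8, known as a spermatid thioredoxin of the acrosome, had 0 reads in all dsfb libraries and was at 3.54, 3.30 and 30.2 CPM in control testes. It was at least 222-fold lower in dsfb (edgeR adjusted p = 0.00475), or at least 63.3-fold without control replicate 3, with a floor of 3 reads over the dsfb group. DESeq2 gave it no adjusted p. Txndc2, the thioredoxin of the sperm tail, was at 2.03, 1.15 and 1.24 CPM in dsfb and at 2.09, 0.785 and 49.2 CPM in control testes. Its groups overlapped apart from control replicate 3, and it did not pass (log2 fold change -3.55, SE 1.41, edgeR adjusted p = 0.0555). Without that library the log2 fold change was 0.03 (edgeR adjusted p = 0.947), and without control replicate 1 or 2 it passed (edgeR adjusted p = 0.033 and 0.016).

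Txnl4b, a relative of a U5 spliceosome subunit, was at 9.04, 8.89 and 9.72 CPM in dsfb and at 51.1, 63.9 and 65.9 CPM in control testes and fell 6.54-fold (log2 fold change -2.71, SE 0.14, edgeR adjusted p = 2.87e-06). Its relative Txnl4a, the spliceosome subunit itself, averaged 19.2 ± 0.864 CPM in dsfb and 16.7 ± 1.88 CPM in control testes and did not pass (log2 fold change 0.20, SE 0.15, edgeR adjusted p = 0.244). Txndc9, a cytosolic protein that binds the chaperonin, was at 52.1, 55.4 and 44.2 CPM in dsfb and at 88.3, 94.2 and 83.8 CPM in control testes (log2 fold change -0.81, SE 0.11, edgeR adjusted p = 0.000419). Txndc12, of the endoplasmic reticulum, was at 41.7, 45.6 and 49.1 CPM in dsfb and at 78.2, 78.2 and 65.5 CPM in control testes (log2 fold change -0.70, SE 0.11, edgeR adjusted p = 0.000991), and its call was lost with library size as the only scaling (edgeR adjusted p = 0.0547). Both fell without overlap of the groups.

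Txndc5, a protein disulfide isomerase, was at 91.9, 82.5 and 82.6 CPM in dsfb and at 54.0, 43.2 and 36.7 CPM in control testes and rose (log2 fold change 0.94, SE 0.15, edgeR adjusted p = 0.000885). Txndc15 (log2 0.63), Txndc17 (log2 0.56), Txndc11 (log2 0.38) and Txndc16 (log2 0.34) rose by smaller log2 fold changes. Txndc16 was at 126, 123 and 116 CPM in dsfb and at 101, 107 and 79.6 CPM in control testes, groups that did not overlap. Its call (edgeR adjusted p = 0.0346) was lost without control replicate 1 or any 1 dsfb library (edgeR adjusted p = 0.0602 to 0.107). That of Txndc17 was lost without control replicate 2 or dsfb replicate 1 or 2 (edgeR adjusted p = 0.0519 to 0.109). Txndc16 also lost its call with RLE scaling and with DESeq2. With no filter beyond 1 read the calls of Txndc16, Txndc17 and Txndc11 were lost. Txnl1, a thioredoxin bound to the proteasome, was at 97.7, 96.0 and 84.7 CPM in dsfb and at 85.0, 85.3 and 65.4 CPM in control testes and did not pass (log2 fold change 0.24, SE 0.13, edgeR adjusted p = 0.124). The groups of Txnl1 overlapped by a narrow margin, and it passed with upper-quartile scaling and with library size as the only scaling.

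Control replicate 3 was far above the other controls in 4 members and well below them in Prdx1, among others. In Gstt4, Gpx6, Txndc2 and Txndc8, chosen after their values were seen, it was more than 7 times as high as either other control library. The spermatid markers had 1093 CPM in sum in that library and 186 and 207 CPM in control replicates 1 and 2, and the early meiotic markers had 774 CPM in that library and 1489 and 1558 CPM in the other controls. The part of these markers in the members named was not tested. In Prdx6b, by contrast, the control libraries ranged only from 307 to 419 CPM, and the pachytene markers ranged from 9566 to 13457 CPM in sum over the same libraries. Without control replicate 3, 26 of 49 tested members rose and 16 fell, against 71.6% of all tested genes that passed in either direction.

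**Figure D4:**
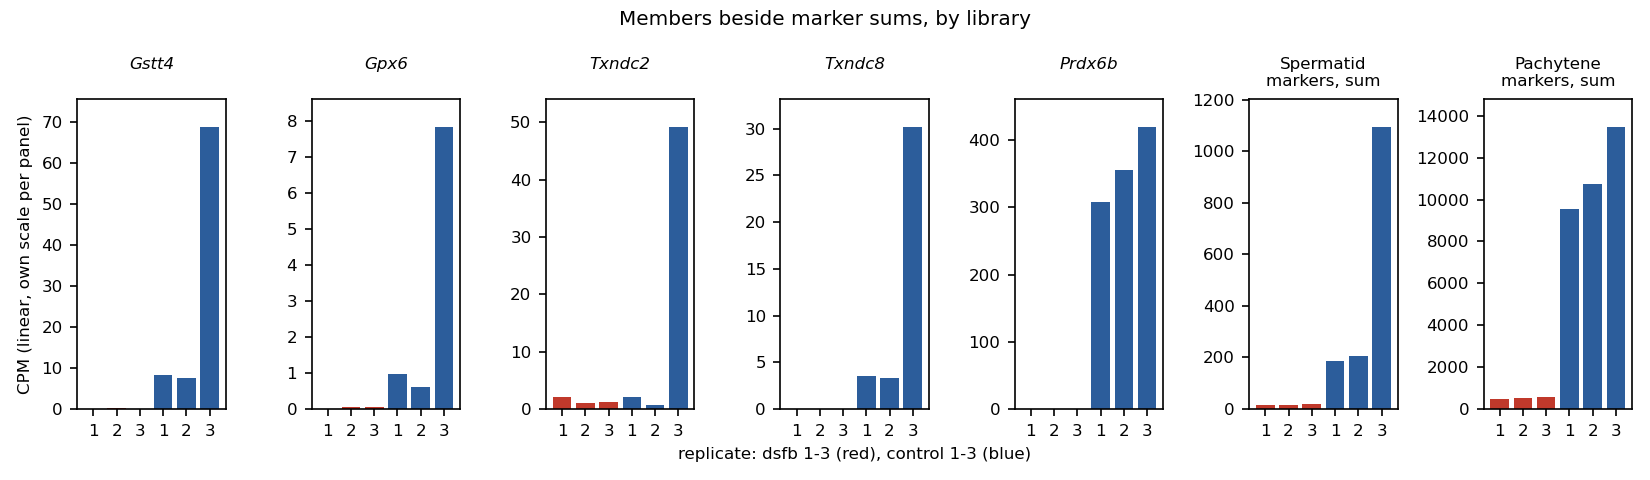
CPM of 5 members and summed CPM of the 12 spermatid and 12 mid to late pachytene markers in each library, on a linear scale of its own per panel (red bars dsfb replicates 1 to 3, blue bars control replicates 1 to 3). Gstt4, Gpx6, Txndc2, Txndc8 and the spermatid sum were highest in control replicate 3, while Prdx6b and the pachytene sum were high in all 3 controls.

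Genes that supply or share this chemistry but lie outside the families were described by list. The counts below stand against 30.7% of all tested genes that passed as higher and 36.2% that passed as lower, and no list was tested against other genes. In glutathione synthesis, reduction and turnover, 5 of 15 tested genes rose and 3 fell (median log2 fold change 0.14). The subunits of the rate-limiting ligase, Gclc and Gclm, named after their values were seen, had log2 fold changes of -0.11 and -0.04 and did not pass (edgeR adjusted p = 0.324 and 0.706). Hagh, which encodes glyoxalase II, averaged 48.1 ± 1.86 CPM in dsfb and 229 ± 38.3 CPM in control testes (log2 fold change -2.25, SE 0.13, edgeR adjusted p = 5.71e-06), and Ggt7 averaged 5.61 ± 0.0723 CPM in dsfb and 21.4 ± 4.87 CPM in control testes (log2 fold change -1.93, SE 0.20, edgeR adjusted p = 0.00012). Among glutaredoxins, 2 of 4 rose and 2 fell (median -0.05). Glrx3, which serves in iron handling, averaged 118 ± 10 CPM in dsfb and 440 ± 32.0 CPM in control testes (log2 fold change -1.89, SE 0.10, edgeR adjusted p = 4.06e-06), and the mitochondrial Glrx5 rose (log2 0.66). Of the membrane-bound transferases and prostaglandin synthases 2 of 4 rose and none fell (median 0.69), namely Mgst1 (log2 0.90) and Mgst3 (log2 0.74), and Mgst3 did not pass without control replicate 1 (edgeR adjusted p = 0.055).

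Of superoxide dismutases and catalase 3 of 5 rose and 1 fell (median 0.78). Sod3, the extracellular enzyme, averaged 100 ± 6.96 CPM in dsfb and 48.8 ± 3.19 CPM in control testes (log2 fold change 1.04, SE 0.09, edgeR adjusted p = 5.68e-05), and Sod1, the cytosolic one, 271 ± 9.21 CPM in dsfb and 158 ± 26.4 CPM in control testes (log2 fold change 0.78, SE 0.13, edgeR adjusted p = 0.00107). Of sulfiredoxin and the sestrins 2 of 4 rose and 1 fell (median 0.59). Sesn2 averaged 190 ± 14.4 CPM in dsfb and 93.0 ± 8.71 CPM in control testes (log2 fold change 1.03, SE 0.10, edgeR adjusted p = 8.79e-05), and Sesn3 fell (log2 -0.91). In the list of NRF2, the transcription factor of the antioxidant response, with its repressor KEAP1 and further targets and partners, 7 of 8 rose and 1 fell (median 1.0). The small MAF partners Mafg and Mafk rose (log2 1.29 and 0.93), as did Nfe2l2, which encodes NRF2 (log2 1.04), and the gene of the list that fell was Keap1 (log2 -0.70), the last pair also named after their values were seen. The Sertoli markers given above had a median of 1.0 in the same comparison, and the peritubular myoid, macrophage and spermatogonial markers 0.86, 0.81 and 0.73. Medians were 0.56 for Leydig, 0.37 for vascular and 0.09 for early meiotic markers, and those of pachytene and spermatid markers were far below 0. A link between these lists and the NRF2 list was not tested.

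Suppliers of NADPH, which both systems consume, rose in 4 of 7 and fell in 2 (median 0.33). G6pdx, the X-linked glucose-6-phosphate dehydrogenase, averaged 58.6 ± 2.86 CPM in dsfb and 25.2 ± 4.11 CPM in control testes (log2 fold change 1.22, SE 0.14, edgeR adjusted p = 0.00017), and Pgd, the next enzyme of the pathway, rose as well (log2 0.83). G6pd2, an autosomal glucose-6-phosphate dehydrogenase gene named after its values were seen, had 1 read in dsfb against 27, 35 and 445 in control libraries, a ratio of control over dsfb level of 419 with a 95% counting interval of 74.9 to 16594. Its control reads were mostly from replicate 3, without which the ratio was 75.5 (13.1 to 3029). Of the protein disulfide isomerases and their oxidases 5 of 14 rose and 3 fell (median 0.21). P4hb rose (log2 0.72), and Ero1lb, an oxidase that recharges these enzymes, averaged 91.4 ± 2.32 CPM in dsfb and 290 ± 17.4 CPM in control testes (log2 fold change -1.66, SE 0.08, edgeR adjusted p = 2.61e-06).

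Of the 7 members with a selenocysteine codon 6 were tested. Of these, Gpx4, Txnrd3 and Txnrd1 fell, Gpx1 and Txnrd2 rose and Gpx3 did not pass. In the list of selenoprotein synthesis and selenium uptake 4 of 11 rose and 4 fell (median -0.11), shares close to those over all tested genes. Sephs2, which makes the selenium donor and is itself a selenoprotein, averaged 37.5 ± 1.91 CPM in dsfb and 211 ± 15.8 CPM in control testes, a 5.62-fold fall (log2 fold change -2.49, SE 0.09, edgeR adjusted p = 6.48e-07). Scly, the lyase that recovers selenium from selenocysteine, averaged 4.72 ± 0.381 CPM in dsfb and 24.1 ± 2.81 CPM in control testes (log2 fold change -2.35, SE 0.17, edgeR adjusted p = 1.83e-05). Selenop, the selenium carrier of plasma, and Lrp8, its receptor in the testis, both named after their values were seen, rose (log2 0.82 and 0.87). Of the exon length of Sephs2, 36.4% overlaps Gm44729 on the opposite strand.

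**Figure D5:**
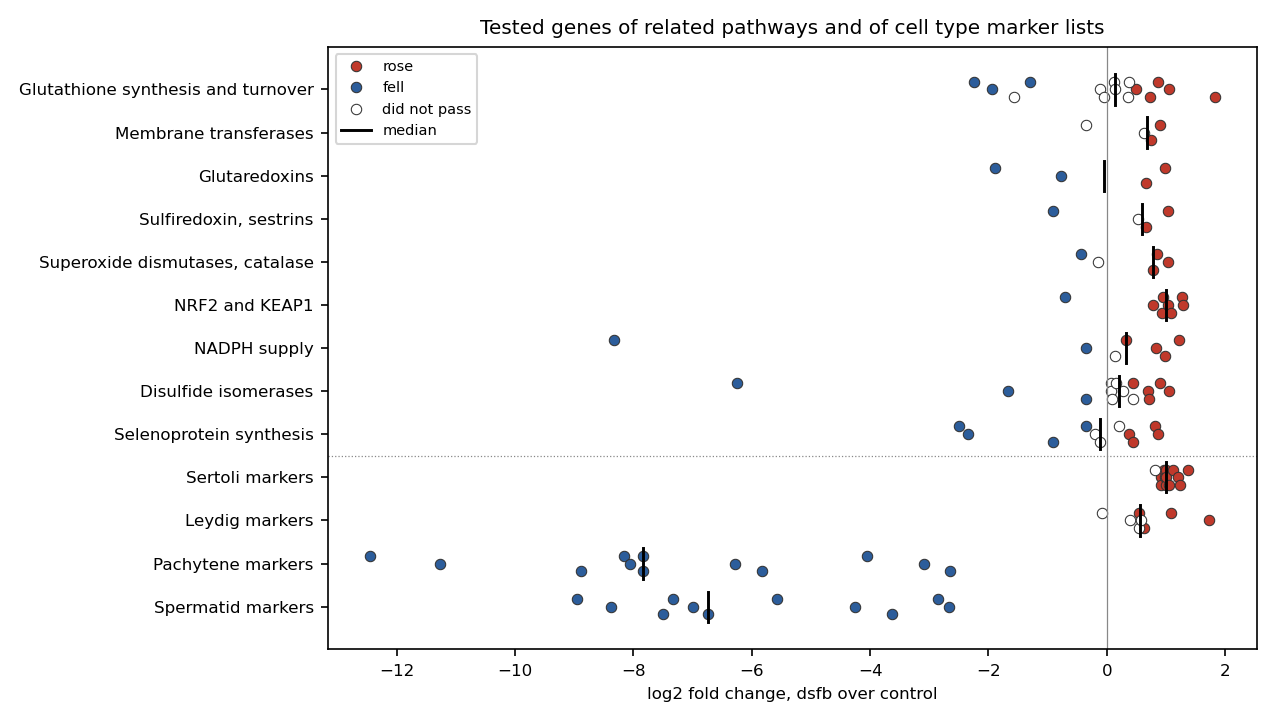
Log2 fold changes of dsfb over control for the tested genes of 9 related pathways (above the dotted line) and 4 marker lists (below it), with 1 point per gene, red for rose, blue for fell and white for did not pass, and a black line at each list's median. Pathway medians lay between -0.11 and 1.0, while the medians of the pachytene and spermatid markers were -7.84 and -6.74.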

How the data were processed

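Libraries were made from TRIzol-extracted testis RNA using NEBNext Ultra reagents, per the protocols in the labels. The authors deposited raw read counts per gene (unit counts), 1 column per library. STAR 2.6.0 and mm10 are named in the submitters' processing notes. For the counting step, the tool, annotation and strandedness are not given in the sources.

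Symbols and exons came from GENCODE M21 (GRCm38), in which 55141 of 55487 identifiers were found; the rest held 0.0458% of counts and stayed in the tests. Counts were fitted with edgeR 4.0.16 in R 4.3.3 (filterByExpr, TMM, estimateDisp, glmQLFit, glmQLFTest, group as the only term). P-values were adjusted by Benjamini-Hochberg over 19826 genes, with a threshold of 0.05. SEs were taken as the size of the log2 value divided by the root of F. Counting intervals are exact at 95% and, like floors of 3 reads, cover counting error only. Shared sequence was counted as 50-base stretches found in transcripts of other genes.

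Members, families, gene lists (162 entries, all matched by symbol) and tests were chosen with earlier results of these data known. Values in every library are given, per family, for up to 5 members past the test with the largest change and a mean of at least 1 CPM and for the 2 with the highest mean CPM. For each pathway list up to 2 genes past the test with the smallest p are named, and Gclc, Gclm, Nfe2l2, Keap1, G6pd2, Selenop and Lrp8 were added after their values were seen. Marker lists are described by counts and summed CPM, with no set test.

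Alternatives were RLE, upper-quartile and library-size-only scaling, no filter beyond 1 read, a mean of at least 1 CPM, DESeq2 1.42.0, limma-voom 3.58.1, a 1.5-fold threshold (glmTreat), a replicate block and leaving out each library. The fit was first tested on simulated counts with known changes. Libraries of a group differed by more than sampling noise (chi-square per degree of freedom 3.82 to 65.0).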

Additional observations from a re-analysis of the deposited data

How the results depend on the processing

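Of 744 values of the 50 tested members under the 15 alternatives, 671 kept their direction and their side of the threshold. Calls among the members ranged from 15 to 31 rises and from 12 to 18 falls. Against a 1.5-fold threshold 15 members rose and 12 fell, and over all genes tested (all genes rose) 3005 passed as higher and (all genes fell) 5537 as lower, 35.2% of these calls being higher, a stricter test by its construction. The values that turned in direction were those of Gpx8 (0.21 with upper-quartile scaling, 0.32 with library size only, 0.15 without control replicate 1 and 0.13 without dsfb replicate 2, against -0.07, with a range of -0.27 to 0.15 over the leave-one-out fits), of Gstz1 (0.078 with library size only) and of Txndc2 (0.033 without control replicate 3 and down to -4.12 without control replicate 2). Without 1 library the members that rose numbered 22 to 26 and those that fell 16 to 18. With a low filter of 1 read 20 rose and 18 fell, and with DESeq2 24 rose and 15 fell among 48 members with an adjusted p. For the changes not given a reason here, the cause was not tested.

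With the replicate number as a block (replicate block) 27 members rose and 17 fell, and among all genes 6228 rose (all genes rose) and 7203 fell (all genes fell), so no call among the members changed. Deviations of same-numbered libraries from their group means correlated at 0.071, 0.061 and 0.116 over genes, not all above 0.1, so the numbers were not taken as pairs, although each library correlated best with its own number. Depth limits the members with 3 or fewer reads in dsfb (Gpx6, Prdx6b, Txndc8), for which only a bound or a wide interval can be given, and those below about 1 CPM, such as Gstp2.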
